A study of Papio anubis with 12 samples.

Results

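Peroxisomal beta oxidation genes that act in DHA synthesis were followed in the cerebral cortex of baboon neonates fed 3 formulas. The members are ABCD2, ABCD3, ACOX2, ACOX3, HSD17B4, EHHADH, ACAA1 and SCP2, and a probe set was counted when the platform annotation gave it one of these symbols and no other. The rule found 11 probe sets for 7 of the 8 genes, out of 54613 probe sets on the array without controls. No probe set carried SCP2 alone, and SCP2 was not analysed here. The RNA came from the precentral gyrus, and the arrays were Affymetrix HG-U133 Plus 2.0, whose probes were designed on human transcripts, with 1 array per animal and 4 animals per formula. Formula C had neither DHA (docosahexaenoic acid) nor ARA (arachidonic acid), L had 0.33% DHA with 0.67% ARA, and L3 had 1.00% DHA with the same 0.67% ARA. All animals were fed their formula for 12 weeks. They were 83 to 85 days old at necropsy in C, 84 to 87 in L and 83 to 84 in L3. Males numbered 2 in C, 1 in L and 0 in L3, so that sex is unevenly spread over the formulas. One C array (replicate 2) is assigned by its title, since its source label says only that it is control brain tissue.

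Peroxisomes shorten fatty acids that are too long or too branched for mitochondria. In the last step of DHA synthesis a fatty acid of 24 carbons, built in the endoplasmic reticulum, is moved to the peroxisome and shortened by one round of beta oxidation to DHA, and inherited loss of HSD17B4 or of peroxisome assembly is known for low DHA and disturbed brain development. The round needs import across the membrane (ABCD transporters), oxidation by an acyl-CoA oxidase (ACOX), hydration and dehydrogenation by a bifunctional enzyme (HSD17B4 or EHHADH) and cleavage by a thiolase (ACAA1 or SCP2).

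Signals are MAS5 values on a linear scale, given as deposited, and every array had been scaled by the authors to nearly the same trimmed mean of 250.01 to 250.02. Log2 differences are those of quantile normalized log2(signal + 16), which makes differences of low signals smaller, with the standard error (SE) from limma. Each comparison is the first formula named minus the second, so that positive values stand for more signal in the formula with more DHA. Replicates are separate animals, and p values cover the spread between animals and arrays together. The tissue is a mixture of cells, so that fewer cells of a type and less RNA per cell cannot be told apart in any value below. The neuron markers (6 of 6 measured) were bright in every group, with a mean log2 value of 13.05 ± 0.19 under C, 13.12 ± 0.13 under L and 12.94 ± 0.17 under L3 (SD, n = 4 each). Arrays differed in quality: the 3'/5' ratio of ACTB, which can rise with RNA degradation, ran from 0.98 to 12.1 in C, from 0.90 to 10.96 in L and from 1.13 to 72.3 in L3, and correlations between arrays ran from 0.68 to 0.91.

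ABCD3 was the single member past an unadjusted p under 0.05 in any comparison with C, through 1 of its 2 probe sets and in both L/C and L3/C. ABCD3 (PMP70) is an abundant transporter of the peroxisomal membrane that works as a dimer and carries long and branched acyl-CoAs inwards. On probe set 1554878_a_at, whose ending _a_at marks probes shared by alternative transcripts of one gene, the signals in C were 82.7, 28.1, 53.8 and 266.2. In L they were 201.0, 93.0, 299.6 and 345.1. In L3 they were 167.9, 239.3, 370.2 and 272.3. C replicates 1 to 3 lay below every L and every L3 array, and the remaining C array (replicate 4) lay among them, so that the groups overlapped. The means were 107.7 ± 108 under C, 234.7 ± 112 under L and 262.4 ± 84.0 under L3 (SD, n = 4 each).

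**Figure D1:**
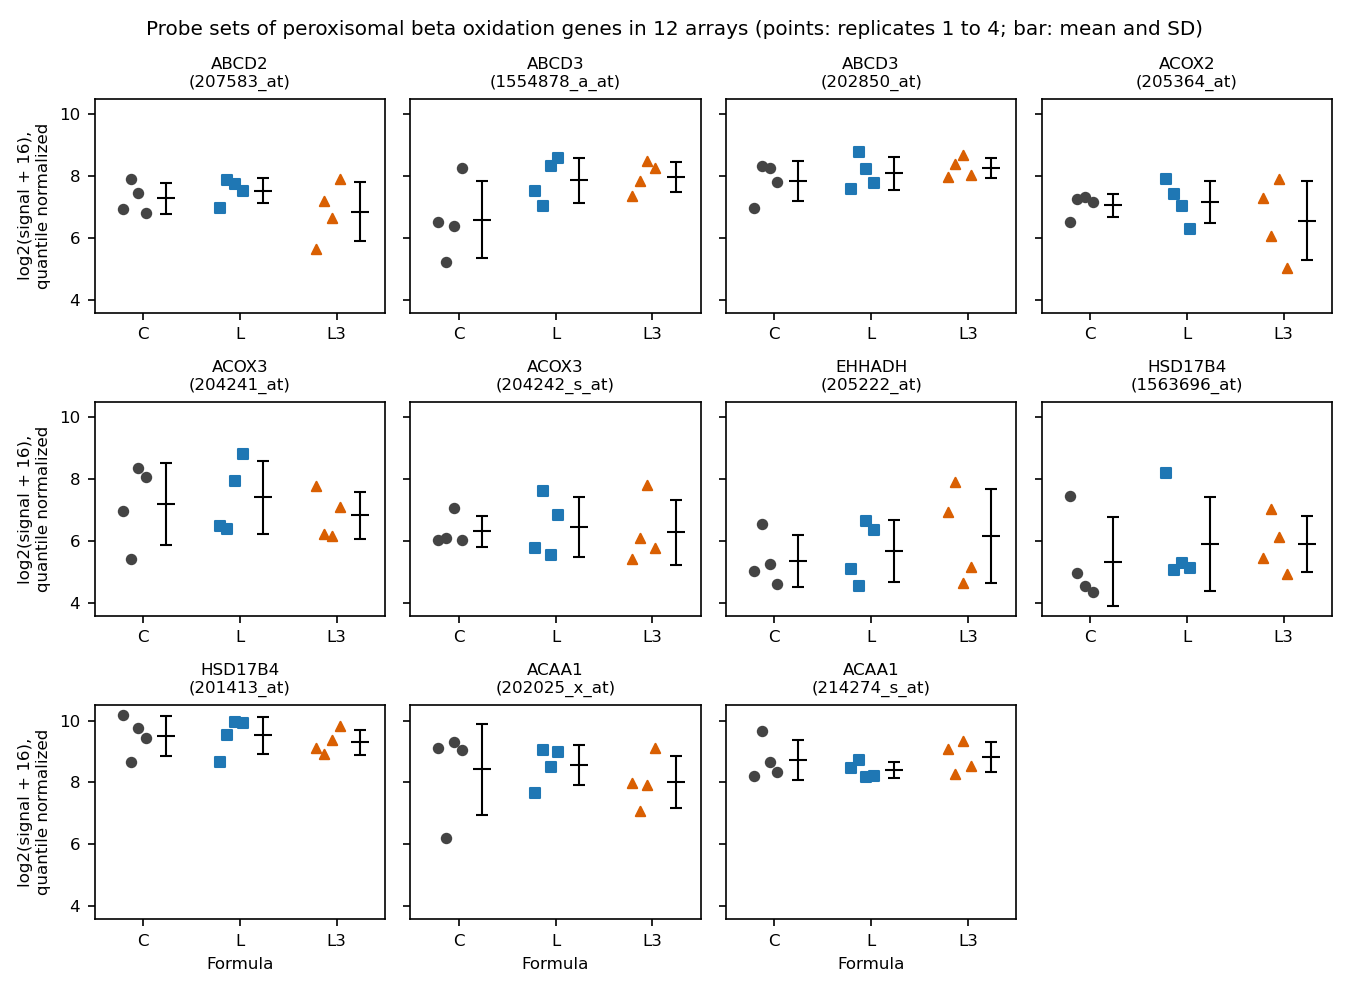
Log2(signal + 16) after quantile normalization (y axis) of the 11 member probe sets in the arrays of formula C, L and L3 (x axis), with 1 point per animal and the mean and SD (n = 4) as a bar. Points of the 3 formulas overlap in every panel, and for ABCD3 (1554878_a_at) a single C array reaches the range of L and L3.

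The log2 difference of ABCD3 (1554878_a_at) was 1.27 in L/C (SE 0.59, 95% interval 0.026 to 2.504), a 2.40-fold higher level in L, with a limma unadjusted p of 0.0459. In L3/C it was 1.38 (SE 0.59, 95% interval 0.14 to 2.62), or 2.61-fold, with a limma unadjusted p of 0.0309. After adjustment over all probe sets limma gave 1.00 for L/C and 0.999 for L3/C. The exact two-sided permutation test of 4 against 4 arrays gave p = 0.143 in L/C and p = 0.0857 in L3/C, where 0.0286 is the smallest possible value. L3/L was 0.12 (SE 0.59), well within the SE. L/C and L3/C share the 4 C arrays, and therefore do not count as 2 separate observations of ABCD3.

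Among the C arrays, replicate 2 had the lowest signal of ABCD3 (1554878_a_at) and replicate 4 the highest. With single arrays left out, the difference was smallest without the former and largest without the latter. Without C replicate 2 it was 0.81 in L/C (limma unadjusted p = 0.168) and 0.92 in L3/C (limma unadjusted p = 0.118). Without C replicate 4 it was 1.82 for L/C and 1.93 for L3/C. The direction was the same in all 28 alternatives of each comparison, with p under 0.05 in 14 of 28 in L/C and in 22 of 28 in L3/C. In females alone (2 in C, 3 in L, 4 in L3) the difference was 2.34 for L/C and 2.18 for L3/C. The female C arrays, replicates 2 and 3, had the lowest signals of all arrays, 28.1 and 53.8. On the other ABCD3 probe set (202850_at) the differences in females alone were −0.44 for L/C and −0.037 for L3/C. C array 4 is of a male, as is C array 1 with a signal of 82.7, and has the lowest ACTB 3'/5' ratio of the C arrays, 0.98. The part of sex or of that ratio in its signal was not tested. Markers of meninges were higher in both formulas than in C for 4 of 4 genes, with summed signals of 1663 to 4004 in C, 2169 to 7950 in L and 2417 to 7861 in L3. Those of microglia were higher than in C for 4 of 4 measured genes in L and for 1 of 4 in L3. Their summed signals were 1127 to 3068 in C, 1486 to 4975 in L and 1273 to 2915 in L3. In the other marker lists, genes higher in L/C and in L3/C were 3 and 4 of 5 for astrocytes and 2 and 0 of 4 for oligodendrocytes. They were 3 and 2 of 5 for endothelium, 1 and 2 of 3 for erythroid cells, 2 and 2 of 4 for liver and 2 and 3 of 6 for neurons. The lowest median signal of a marker gene in a group was 109.4 for meninges and 39.65 for microglia, both in C, and the part of these cells in the ABCD3 values was not tested.

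The other probe set of ABCD3, 202850_at, is the brighter of the pair, and its values were 114.9, 338.9, 247.9 and 188.1 in C. They were 211.0, 392.8, 275.4 and 173.7 in L, and 257.1, 343.8, 414.1 and 228.8 in L3. All 3 groups overlapped, and the log2 difference was 0.24 in L/C (SE 0.41) and 0.42 in L3/C (SE 0.41). Its 95% interval in L3/C, −0.44 to 1.28, holds 0 and reaches close to the estimate of the first probe set. C array 2, lowest of all arrays on the first probe set, was the highest C array on this one.

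ABCD2 is a transporter of the peroxisomal membrane that imports very long and polyunsaturated acyl-CoAs. Its single probe set, 207583_at, gave 111.8, 256.1, 125.6 and 87.0 in C, 131.9, 182.1, 185.7 and 142.3 in L, and 40.0, 146.9, 101.6 and 207.8 in L3. The L arrays lay within the range of C, and L3 held the lowest array. Log2 differences were 0.26 in L/C, −0.43 in L3/C and −0.68 in L3/L (SE 0.52 each), and the exact permutation test gave p = 0.286 for L3/L. The lowest array, L3 replicate 1, is the one with the ACTB 3'/5' ratio of 72.3.

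The oxidases open the round of beta oxidation. ACOX2 acts on branched acyl-CoAs and bile acid intermediates, and its probe set 205364_at gave 81.6, 160.5, 111.4 and 113.1 in C, 266.6, 126.5, 110.2 and 53.2 in L, and 158.1, 51.0, 261.4 and 14.6 in L3. The SD on the log2 scale was 0.37 in C, 0.67 in L and 1.28 in L3, a difference in spread that was not tested. C lay inside the range of both other groups. The log2 differences were 0.10 for L/C and −0.50 for L3/C (SE 0.61 each).

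ACOX3, the oxidase of pristanoyl-CoA and related branched chains, had 2 probe sets. On 204241_at the signals were 117.9, 34.8, 269.3 and 230.2 in C, 87.8, 56.2, 221.5 and 422.0 in L, and 226.2, 61.5, 61.6 and 112.4 in L3. High and low arrays occurred under every formula, and the log2 differences were 0.20 for L/C and −0.38 for L3/C (SE 0.70 each). The second, 204242_s_at (_s_at marks probes shared by several transcripts), ran from 29.4 to 246.2 over the 12 arrays, with log2 differences of 0.15 for L/C and −0.032 for L3/C (SE 0.61 each).

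HSD17B4, the D-bifunctional protein, is the enzyme that carries 24-carbon intermediates through hydration and dehydrogenation on the way to DHA. Probe set 201413_at was brighter than 91.5% of all probe sets, a measure of how well it is read and not of its transcript level against other genes. Its signals were 1102.9, 410.5, 978.4 and 717.9 in C, 424.2, 789.1, 1028.8 and 1094.4 in L, and 529.1, 463.8, 604.7 and 955.8 in L3. Each formula held both low and high arrays, and the log2 differences were 0.0091 for L/C and −0.21 for L3/C (SE 0.36 each), the smallest SE among the members. The 95% interval was −0.76 to 0.78 in L/C and −0.98 to 0.56 in L3/C, so that differences within these limits were not excluded. The other HSD17B4 probe set, 1563696_at, was dim, brighter than 14.3% of probe sets, and ran from 3.1 to 324.1 with log2 differences of 0.58 for L/C and 0.56 for L3/C (SE 0.76 each).

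EHHADH is the L-bifunctional enzyme, which handles dicarboxylic and other acyl-CoAs and is most abundant in liver and kidney. Its probe set 205222_at was also dim, brighter than 14.7% of probe sets, with 18.4, 93.0, 16.7 and 6.3 in C. In L it gave 24.6, 6.0, 81.3 and 56.4, and in L3 120.9, 252.1, 10.4 and 18.5. L3 replicates 1 and 2 exceeded every C and L array and the other L3 arrays lay at the level of the low C arrays. The log2 difference in L3/C was 0.81 (SE 0.69, 95% interval −0.65 to 2.26), the largest among the members after ABCD3, and the exact permutation test gave p = 0.400. In L/C it was 0.30 (SE 0.69).

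ACAA1 is the thiolase that cleaves straight-chain 3-ketoacyl-CoAs and closes the round. Its brighter probe set 214274_s_at gave 287.4, 711.9, 357.3 and 291.2 in C, 382.8, 377.4, 264.2 and 256.7 in L, and 526.1, 320.2, 598.8 and 341.4 in L3. The highest array was a C array, and the log2 differences were −0.31 in L/C, 0.096 in L3/C and 0.41 in L3/L (SE 0.37 each). ACAA1 in L/C was the single negative difference among the 11 probe sets in that comparison. The second probe set, 202025_x_at (_x_at marks probes that may also match other sequences), ran from 69.5 to 647.5, with differences of 0.13 for L/C and −0.40 for L3/C (SE 0.62 each). Its lowest array was C replicate 2, at 69.5 against 521.5 to 647.5 in the other C arrays. Without that array the difference in L3/C was −1.15 (limma unadjusted p = 0.0269), the 1 of 28 alternatives with p under 0.05. The sign changed in 3 of 16 alternatives other than leaving out single arrays, to 0.28 in females only and 0.12 with the sex covariate. The same C array was the highest of all arrays on 214274_s_at, at 711.9.

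**Figure D2:**
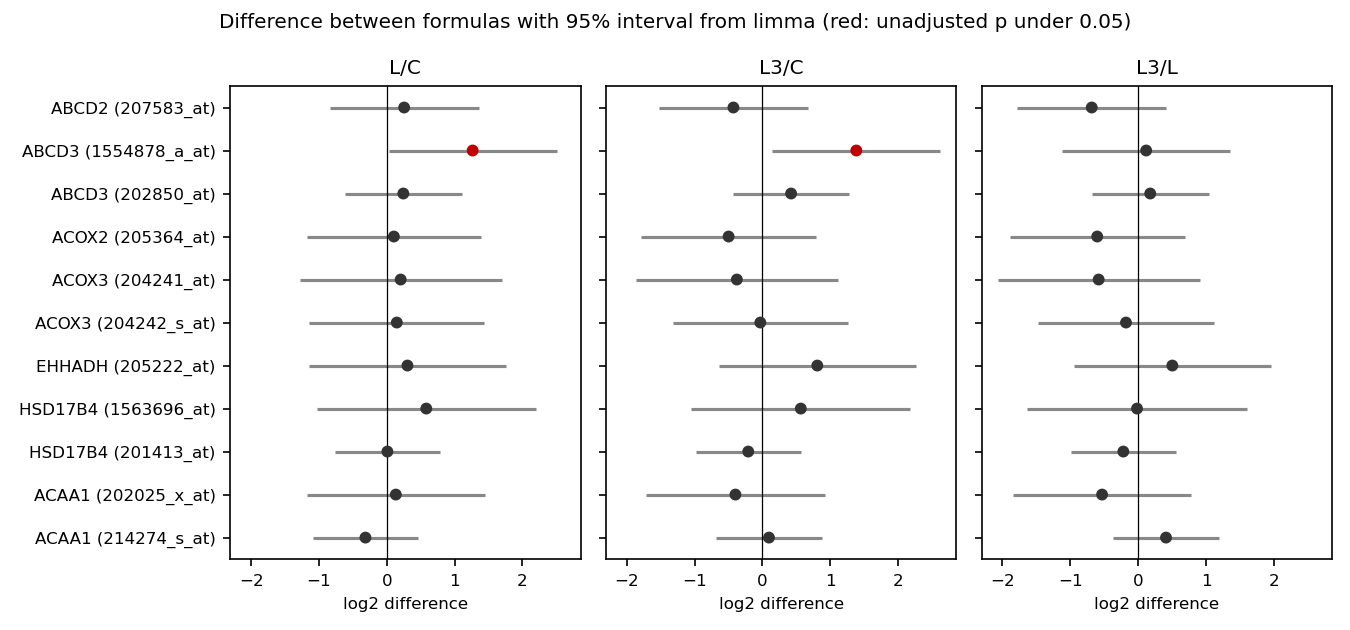
Log2 difference (x axis) of each member probe set (y axis) in L/C, L3/C and L3/L, with 95% intervals from limma as lines. ABCD3 (1554878_a_at) in L/C (1.27) and in L3/C (1.38) are the values whose interval leaves out 0.

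Over the members, 1 of 11 probe sets passed an unadjusted p under 0.05 for L/C, where 2.42% of all 54613 probe sets had one. In L3/C it was again 1 of 11, beside 4.26% of all. In L3/L it was 0 of 11, beside 5.4%, and among the 3 groups (the limma F test) 0 of 11, beside 3.67%. A single call is the smallest count above 0, and it is 1 probe set of a gene whose other probe set was not called. At an adjusted p under 0.05 limma called 0% of all probe sets in each of the 4 comparisons, and so 0 of 11 members. Probe sets with all 4 arrays of one formula above all 4 of the other were 0 of 11 members in L/C, L3/C and L3/L, beside 2.1%, 2.21% and 2.66% of all probe sets.

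In L/C 10 of the 11 probe sets were higher in L, with a median log2 difference of 0.20, while over all probe sets 26823 of 54613 were higher and the median was −0.0089. The same 10 were higher without further normalization and with arrays centred on the median. The 10 are not separate measurements, since they come from the same 8 animals and 4 of the genes have 2 probe sets each. The median size of the difference without regard to sign was 0.24 for the members, under the 0.28 of all probe sets and well under the members' median SE of 0.61. In L3/C 5 were higher and 6 lower, with a median of −0.032 (0.080 without further normalization), where ACOX3 (204242_s_at) changed sign without normalization and ACAA1 (214274_s_at) with centring. In L3/L 4 were higher and 7 lower, with a median of −0.18.

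Where a gene had 2 probe sets, r between them across animals was at most 0.039. Over the 12 arrays Pearson's r between both probe sets was 0.039 for ABCD3 (permutation p = 0.899), −0.11 for ACOX3 (permutation p = 0.720), −0.29 for HSD17B4 (permutation p = 0.366) and −0.56 for ACAA1 (permutation p = 0.0543). Spearman's rho was −0.077 for ABCD3, −0.23 for ACOX3, −0.19 for HSD17B4 and −0.27 for ACAA1 (permutation p = 0.816, 0.468, 0.559 and 0.390). Without the 2 arrays farthest from the median of the first probe set r was 0.36 for ABCD3, −0.36 for ACOX3, −0.41 for HSD17B4 and −0.48 for ACAA1. Each value here is therefore given as that of a probe set, not of a gene.

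**Figure D3:**
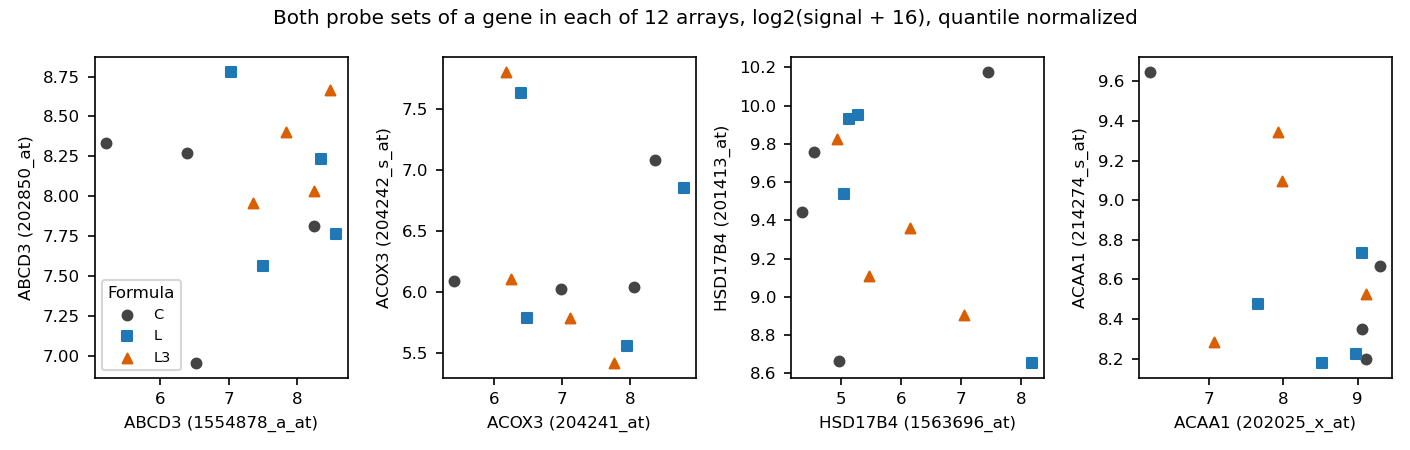
Both probe sets of ABCD3, ACOX3, HSD17B4 and ACAA1, log2(signal + 16) after quantile normalization on both axes, with 1 point per array coloured by formula. No panel shows the points rising together, with r from −0.56 for ACAA1 to 0.039 for ABCD3.

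Some member probe sets were correlated, before correction, with the hybridization controls, which are transcripts of bacteria and phage added in fixed amounts before hybridization. The mean log2 signal of their 18 probe sets was 12.0 ± 0.67 under C, 11.7 ± 0.99 under L and 12.7 ± 1.32 under L3 (SD, n = 4 each). Over the 12 arrays r with that level was −0.66 for HSD17B4 (201413_at), −0.68 for ACAA1 (202025_x_at) and −0.65 for ACOX3 (204241_at), with permutation p = 0.0216, 0.0152 and 0.0257. Spearman's rho was −0.66, −0.59 and −0.70 in the same order (permutation p = 0.0214, 0.0456 and 0.0142). Without the 2 arrays farthest from the median (L3 replicate 3 and L replicate 4) r was −0.70, −0.70 and −0.49. The dim HSD17B4 probe set (1563696_at) went the other way, with r of 0.59 (permutation p = 0.0432), rho of 0.64 (permutation p = 0.0279) and 0.63 without those arrays. Of 26 relations of this kind computed, the smallest adjusted permutation p was 0.167 for r and 0.181 for rho, so that none passed the correction. With the controls as a covariate, the L3/C differences of HSD17B4 (201413_at), ACAA1 (202025_x_at) and ACOX3 (204241_at) were 0.042, 0.074 and 0.097 in place of −0.21, −0.40 and −0.38.

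For ABCD3 (1554878_a_at) r with the hybridization controls was −0.28 (permutation p = 0.380), rho −0.27 (permutation p = 0.406) and r without the same 2 arrays −0.41. With that covariate its difference was 1.12 for L/C (limma unadjusted p = 0.0548, no longer past the threshold) and 1.70 for L3/C. With the log2 ACTB 3'/5' ratio ABCD3 (1554878_a_at) had r of −0.43 (permutation p = 0.161) and rho of −0.56 (permutation p = 0.0622), and r was −0.51 without L3 replicate 1 and L replicate 4, the arrays farthest from the median of the ratio. With the ratio as a covariate its difference was 1.05 for L/C (limma unadjusted p = 0.0623) and 1.60 for L3/C. ABCD2 had r of −0.70 with the log2 ACTB 3'/5' ratio (permutation p = 0.0115, adjusted 0.167) and rho of −0.45 (permutation p = 0.148). Without L3 replicate 1 and L replicate 4 that r was −0.36, and the relation rests largely on those arrays. HSD17B4 (1563696_at) ran the other way, with r of 0.50 (permutation p = 0.0938), rho of 0.65 (permutation p = 0.0248, adjusted 0.181) and r of 0.79 without those arrays.

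**Figure D4:**
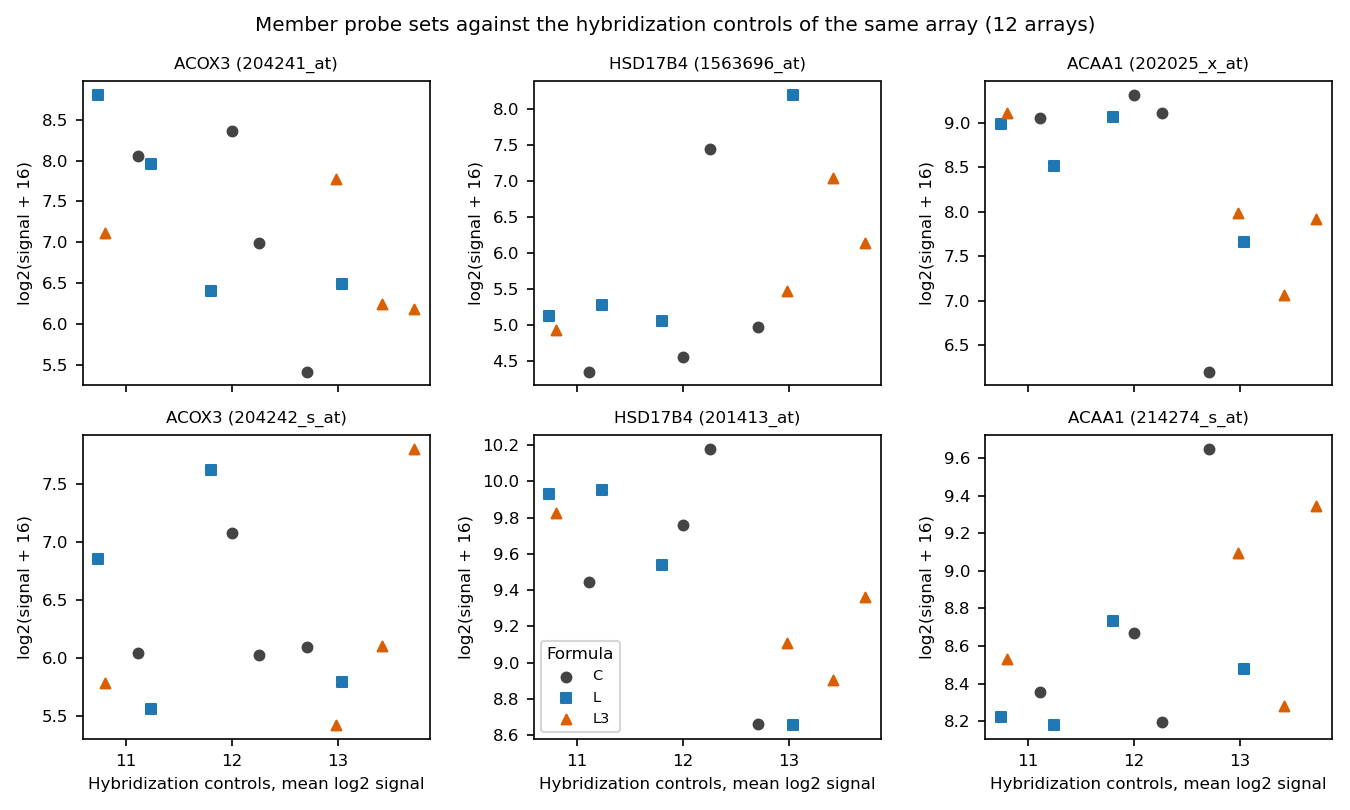
Log2(signal + 16) after quantile normalization (y axis) of both probe sets of ACOX3, HSD17B4 and ACAA1 against the mean log2 signal of the hybridization controls of the same array (x axis), 12 arrays coloured by formula. One probe set of each gene is lower where the controls are higher, ACOX3 (204241_at), HSD17B4 (201413_at) and ACAA1 (202025_x_at), with r from −0.65 to −0.68.

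Other genes around the pathway were read from lists in which each gene is represented by its brightest probe set. Among 12 of 14 measured genes of other peroxisomal fatty acid oxidation, 0 passed an unadjusted p under 0.05 in L/C or in L3/C. Of all probe sets 2.42% passed in L/C and 4.26% in L3/C. The median difference of the 12 was −0.10 for L/C and 0.23 for L3/C. AMACR, the racemase that prepares branched acyl-CoAs, differed by −1.001 in L/C (SE 0.64), and HACL1, a lyase of alpha oxidation, by −0.91 in L3/C (SE 0.46, limma unadjusted p = 0.0675). In L3/L 2 of the 12 were higher at an unadjusted p under 0.05, AMACR by 1.48 (SE 0.64) and DECR2, a reductase for unsaturated chains, by 1.03 (SE 0.48), where 5.4% of all probe sets passed. The limma adjusted p was 0.891 for both.

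Peroxins import proteins into the peroxisome and build it. Of 12 measured of 16, 3 were higher and 9 lower in L3/C, with a median of −0.33 (−0.48 with arrays centred on the median, which moves the median of all probe sets to −0.12). Over all probe sets 27265 of 54613 were higher in L3/C, and 4.26% had an unadjusted p under 0.05. The 1 peroxin past an unadjusted p under 0.05 rose: PEX5, the receptor that brings enzymes with a C-terminal signal into the matrix. Its signal was 663.7 ± 46.7 under C, 667.1 ± 264 under L and 1067 ± 199 under L3 (SD, n = 4 each), and its log2 difference in L3/C was 0.74 (SE 0.30, limma unadjusted p = 0.0231, limma adjusted p = 0.999). PEX5 also passed in L3/L, at 0.78 (SE 0.30), a comparison that uses the same L3 arrays. In L/C 0 of 12 passed, beside 2.42% of all probe sets, with a median of −0.030. PEX11A, which acts in peroxisome division, had the smallest p there, at −1.11 (SE 0.60).

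The steps before the peroxisome were read from 4 of 5 desaturases and elongases, of which 0 passed in either comparison with C. In L3/C 0 of 4 were higher, where 27265 of all 54613 probe sets were. The median of the 4 was −0.58 (−0.52 without further normalization and −0.69 with centring). ELOVL4, an elongase of very long chains, had the smallest p at −1.03 (SE 0.64). FADS2 (−0.58, SE 0.63), ELOVL2 (−0.58, SE 0.89) and ELOVL5 (−0.19, SE 0.37) lay within their SE in L3/C. The paper reports the elongase ELOVL5 as differentially expressed, slightly lower in L/C and higher in L3/C. That L3/C direction is opposite to the one here, where the difference lay within its SE and only the brightest ELOVL5 probe set was read. The values here come from MAS5 signals and the paper's methods describe RMA values, so that the directions are not a like comparison. In L/C the median was 0.15, and FADS2, the first desaturase of the pathway, differed by 0.65 (SE 0.63). Of 4 of 4 ether lipid genes, which share the peroxisome with beta oxidation, 0 passed, with medians of 0.086 for L/C and 0.070 for L3/C (−0.037 with centring). FAR2, a fatty acyl-CoA reductase, had the smallest p there, at −0.51 for L/C and −0.47 for L3/C (SE 0.39 each). The regulators PPARA, RXRA and PPARGC1A with the matrix enzyme catalase (CAT) had medians of −0.11 for L/C and −0.15 for L3/C, and 0 of 4 passed. PPARGC1A differed by −0.40 in L/C (SE 0.55) and CAT by −0.19 in L3/C (SE 0.30). CAT signals of 419.8 ± 60.2 under C, 429.1 ± 93.6 under L and 398.5 ± 86.4 under L3 (SD, n = 4 each) differed by less than their spread.

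**Figure D5:**
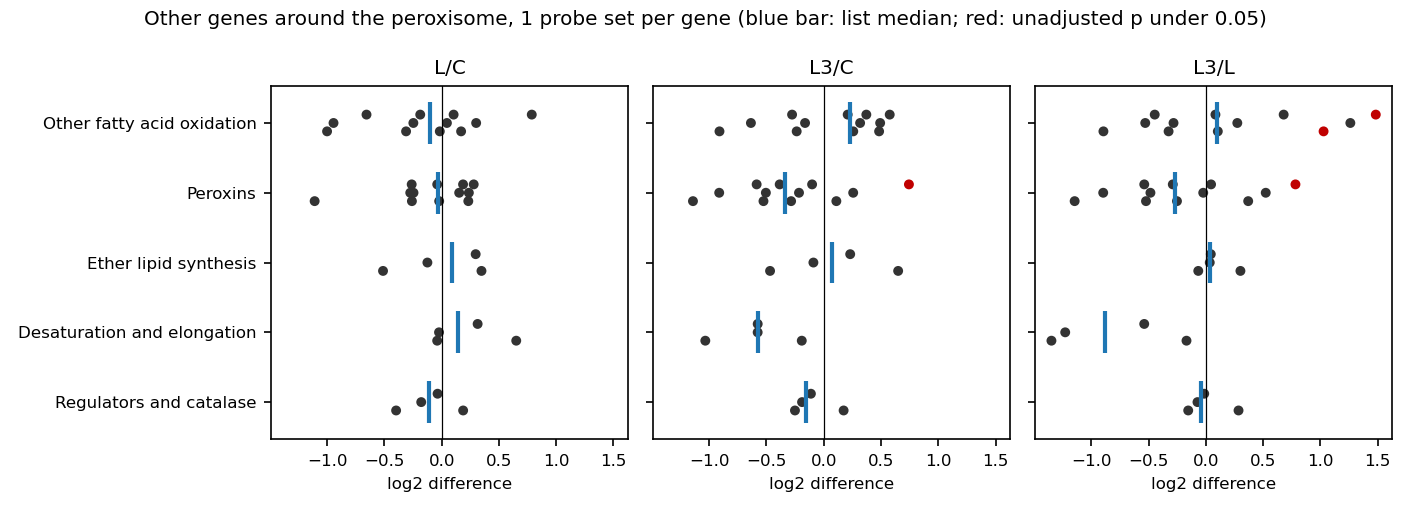
Log2 differences (x axis) of the genes of 5 other lists (y axis) in L/C, L3/C and L3/L, 1 point per gene, with the list median as a bar. PEX5 in L3/C (0.74) is the single gene past an unadjusted p under 0.05 in the comparisons with C, and AMACR, DECR2 and PEX5 pass in L3/L.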

How the data were processed

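The authors deposited MAS5 signals of 54675 probe sets for 12 arrays, an intensity on a linear scale summarized by GCOS and scaled to a common trimmed mean (2% at either end). The methods describe RMA, but the deposited values are not RMA values. Probes match human transcripts, so baboon mismatches can lower a signal. From the deposited table, the 62 controls were dropped, log2(signal + 16) was computed and arrays were quantile normalized. Limma 3.58.1 (R 4.3.3) fitted the 3 group means on 54613 probe sets (9 residual degrees of freedom, variance trend), with Benjamini-Hochberg adjustment over all. Exact permutation tests are two-sided, and those of correlations drew 100000 permutations (Python 3.11.15, scipy 1.17.1). In the annotation used, 41091 probe sets have 1 symbol, 1801 several and 11721 none. Precision is limited by 4 arrays per group. In simulated data for L3/C, 5.1% of unchanged probe sets had p under 0.05, and 48% of those changed by log2 1 and 92.5% by log2 2. That noise was drawn independently for each probe set and array, and the changed probe sets were picked at random from all. The median SE was 0.61 for the members and 0.51 over all probe sets, and rates for the members alone were not computed.

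The members and lists were chosen with earlier results of these data known. Named are all members, with values in every array for probe sets at an unadjusted p under 0.05 and for the brightest one of each gene. Of other lists, the genes past that threshold or with the smallest p are named. AMACR, DECR2 and PEX5 in L3/L were named after their values were seen. Alternatives were other normalizations, pseudocounts and filters, no variance trend, 8 arrays only, covariates (sex, age, ACTB 3'/5' ratio, spike-in controls), females only, array weights, a replicate block, the multiclass and pairwise rule of the methods and leaving out each array. The covariate of hybridization controls alone and the arrays with an ACTB ratio of at most 10 were chosen after seeing the data. No sequence is shown.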

Additional observations from a re-analysis of the deposited data

Results flagged for a closer look

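In 3 of 33 groups of 4 arrays (11 member probe sets in 3 formulas), 1 array stood far from the other 3 by Dixon's criterion, which chance meets in about 1 of 20 groups. For ACOX3 (204242_s_at), C replicate 3 was higher, at 7.08 on the log2 scale against 6.03 to 6.09 in the other C arrays. For HSD17B4 (1563696_at), L replicate 1 was higher, at 8.20 against 5.06 to 5.28 in the other L arrays. Its ACTB 3'/5' ratio, 10.96, is the highest of the L arrays, and its part in the value was not tested. For ACAA1 (202025_x_at), C replicate 2 was lower, at 6.21 against 9.05 to 9.31, and its hybridization control level of 12.7 is the highest of the C arrays, whose part was not tested.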

How the results depend on the processing

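The count of members at an unadjusted p under 0.05 in L/C, 1 as reported, was 0 with a pseudocount of 64, in a fit to the 8 arrays alone, with the ACTB 3'/5' or the hybridization control covariate, in arrays with an ACTB ratio of at most 10 and by the multiclass and pairwise rule of the methods, and 0 to 1 when single arrays were left out. With the age covariate it stayed 1 but the probe set was HSD17B4 (1563696_at). In L3/C, 1 as reported, it was 0 with array weights and by the rule of the methods, 2 in arrays with an ACTB ratio of at most 10, and 0 to 1 with single arrays left out. In L3/L, 0 as reported, it was 1 with the hybridization control covariate (ACOX2, −1.24). Among the 3 groups, 0 as reported, it was 1 without further normalization, in females only, with the spike-in, ACTB or hybridization control covariate and in arrays with an ACTB ratio of at most 10, and 0 to 1 with single arrays left out. Members at an adjusted p under 0.05 were 0 as reported. The other peroxisomal genes called, 0 in L/C, 1 in L3/C and 3 in L3/L of 36, were 2, 5 and 6 of 84 with all probe sets of each gene, beside 2.42%, 4.26% and 5.4% of all probe sets, and 5 of 36 in L3/L without further normalization.

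The arrays are of different animals and the sample records give the replicate numbers no meaning, so that no block was used in the reported fit. Of 12 pairs of same-numbered arrays, 6 correlated over 0.1 (−0.085 to 0.33), the 3 pairs of replicate 1 (0.136 to 0.185) and the 3 of replicate 4 (0.26 to 0.331). This is a different measure from the correlation of whole arrays, which ran from 0.68 to 0.91, and the values cannot be compared. In each formula replicate 1 had the highest ACTB 3'/5' ratio (10.96 to 72.3) and replicate 4 the lowest (0.90 to 1.13), so that same-numbered arrays may share more than a number, which was not tested. With a replicate block, members called were 1 in L/C, 1 in L3/C and 1 among the 3 groups.

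The cause of these changes was not tested. Precision is limited by 4 arrays per formula and, for EHHADH and HSD17B4 (1563696_at), by signals near the pseudocount of 16 on several arrays.

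Without an array (formula and replicate), ABCD3 (1554878_a_at) was 0.81 to 1.82 in L/C and 0.92 to 1.93 in L3/C, lost in L/C without C 1, C 2, C 3, L 3, L 4, L3 2, L3 3 or L3 4 and in L3/C without C 1, C 2, C 3, L3 3 or L3 4.

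Of single log2 differences outside leave-one-out, 456 kept direction and side of the threshold, 7 lost it, 3 passed it and 50 changed sign, among probe sets whose reported value lay within its SE except for ABCD3 (202850_at) in L3/C.
In females only the difference was in L/C −0.26 for ABCD2, −0.44 for ABCD3 (202850_at), −0.21 for ACOX2, −0.52 for ACOX3 (204242_s_at) and in L3/C −0.037 for ABCD3 (202850_at), 0.088 for HSD17B4 (201413_at), 0.28 for ACAA1 (202025_x_at), −0.33 for ACAA1 (214274_s_at) and in L3/L −0.16 for ABCD3 (1554878_a_at), 0.21 for ACOX3 (204242_s_at). With the age covariate the difference was in L/C −0.0027 for ABCD3 (202850_at), −0.024 for ACOX3 (204241_at), −0.057 for HSD17B4 (201413_at). With array weights the difference was in L/C −0.21 for ACOX2, −0.019 for ACAA1 (202025_x_at) and in L3/L −0.13 for ABCD3 (1554878_a_at), 0.46 for HSD17B4 (1563696_at). In arrays with an ACTB ratio of at most 10 the difference was in L/C −0.32 for ACOX2 and in L3/C 0.16 for ACOX3 (204242_s_at), 0.081 for HSD17B4 (201413_at), −0.18 for ACAA1 (214274_s_at) and in L3/L 0.89 for HSD17B4 (1563696_at). With the hybridization control covariate the difference was in L/C −0.0083 for ACOX3 (204241_at), −0.10 for HSD17B4 (201413_at), −0.079 for ACAA1 (202025_x_at) and in L3/C 0.097 for ACOX3 (204241_at), −0.029 for HSD17B4 (1563696_at), 0.042 for HSD17B4 (201413_at), 0.074 for ACAA1 (202025_x_at), −0.055 for ACAA1 (214274_s_at) and in L3/L 0.10 for ACOX3 (204241_at), 0.15 for HSD17B4 (201413_at), 0.15 for ACAA1 (202025_x_at). With the sex covariate the difference was in L/C −0.010 for EHHADH and in L3/C 0.14 for ACOX3 (204242_s_at), 0.12 for ACAA1 (202025_x_at), −0.062 for ACAA1 (214274_s_at) and in L3/L 0.023 for HSD17B4 (1563696_at). With the spike-in covariate the difference was in L/C −0.10 for HSD17B4 (201413_at), −0.074 for ACAA1 (202025_x_at) and in L3/C −0.0056 for ACAA1 (214274_s_at) and in L3/L 0.069 for HSD17B4 (201413_at). With the ACTB covariate the difference was in L/C −0.084 for HSD17B4 (201413_at), −0.0094 for ACAA1 (202025_x_at) and in L3/C 0.058 for ACOX3 (204242_s_at). Without further normalization the difference was in L3/C 0.080 for ACOX3 (204242_s_at) and in L3/L 0.12 for HSD17B4 (1563696_at). With a pseudocount of 64 the difference was in L3/C 0.028 for ACOX3 (204242_s_at). With centring on the median the difference was in L3/C −0.0056 for ACAA1 (214274_s_at). With a pseudocount of 1 the difference was in L3/L 0.074 for HSD17B4 (1563696_at).

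With single arrays left out, the range in L/C was −0.052 to 0.42 for ABCD3 (202850_at), −0.61 to 0.43 for ACAA1 (202025_x_at), −0.14 to 0.39 for ACOX2, −0.39 to 0.59 for ACOX3 (204241_at), −0.24 to 0.45 for ACOX3 (204242_s_at), −0.020 to 0.71 for EHHADH, −0.18 to 1.29 for HSD17B4 (1563696_at), −0.28 to 0.31 for HSD17B4 (201413_at). With single arrays left out, the range in L3/C was −0.083 to 0.41 for ACAA1 (214274_s_at), −0.94 to 0.012 for ACOX2, −0.98 to 0.010 for ACOX3 (204241_at), −0.54 to 0.26 for ACOX3 (204242_s_at), −0.50 to 0.013 for HSD17B4 (201413_at). With single arrays left out, the range in L3/L was −0.16 to 0.35 for ABCD3 (1554878_a_at), −0.68 to 0.21 for ACOX3 (204242_s_at), −0.078 to 1.00 for EHHADH, −0.40 to 0.74 for HSD17B4 (1563696_at).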
